A study of Mus musculus with 12 samples.

Results

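The 34 genes described here encode the enzymes of sterol synthesis and fatty acid synthesis and the proteins that control them through SREBP, the sterol regulatory element-binding protein. They were chosen by gene symbol with earlier results of these data known, so their counts beside those of all genes are a description. All 34 were present among the 56287 entries of the deposited table. The sterol arm holds 18 genes, the fatty acid arm 10, and a further set of 6 holds regulators and a sterol carrier. After the filter on low counts 32 of the 34 genes were tested, among 14694 genes in all. The cells were L929, an established line of wild-type mouse fibroblasts, and 12 RNA-seq libraries fell into 4 groups of 3. One group was labelled mock. The HT-DNA group had been transfected with HT-DNA for 6 h by Lipofectamine 2000, at a dose given as 0.5 with a garbled unit. The HT-DNA+AOA group also was given AOA at 0.5 mM starting 1 h ahead of transfection, and the HT-DNA+AOA+Asp group received in addition Asp at 20 mM. AOA and Asp are not spelled out in the labels; in this field they are the short forms of aminooxyacetate, an inhibitor of aminotransferases, and of aspartate. Every group with AOA had received HT-DNA, so an effect of AOA on these genes without DNA could not be measured. Asp was given only together with AOA, so an effect of Asp without AOA could not be measured either. It is not stated whether the mock group got the reagent. Whether the replicates came from different cultures is not stated. The p-values therefore rest on the spread between these libraries alone, which may be technical.

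Animal cells build sterols and fatty acids from acetyl-CoA. When sterols in the endoplasmic reticulum are low, Scap carries the SREBP precursors to the Golgi, where they are cut, and the released factors enter the nucleus and raise transcription of both sets of enzymes. SREBP-2, from Srebf2, is best known for driving the sterol genes, and SREBP-1, from Srebf1, for the fatty acid genes. The Insig proteins hold Scap in the endoplasmic reticulum when sterols are plentiful, and Insig1 is itself an SREBP target.

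Libraries held 19944571 to 27309291 estimated counts. Levels are given as CPM, the usual per-library scaling of counts, on library sizes adjusted by TMM, so each value is relative to the rest of the library. Fewer cells with a transcript and less of it per cell cannot be told apart. A gene was called when edgeR's quasi-likelihood test gave an adjusted p under 0.05 over all genes tested. Of 12 fibroblast markers 8 passed the filter, led by Vim at 2833 to 3782 CPM across the libraries, while Thy1, Fap, Dcn and Lum held 0 to 5 counts per library. Markers that define other cell types were at or near 0, with at most 1 count per library of Ptprc, Adgre1 or Adipoq, none of Lep and at most 2 of Epcam. With HT-DNA 5 of the 8 fibroblast markers tested were lower and 1 higher, where 19.8% and 21.2% of all tested genes were called lower and higher. With AOA 7 were lower and none higher, where 26.5% and 25.5% were. The summed level of the list was 5524 to 5671 CPM in mock, 5547 to 6167 CPM under HT-DNA and 4985 to 5116 CPM with AOA. With Asp 7 of the 8 were higher than in HT-DNA+AOA, where 28.3% of all tested genes were, at 5618 to 5751 CPM in sum. The leukocyte list, nearly all Cd68, summed to 287 to 310.3 CPM in mock, 246 to 253 CPM under HT-DNA, 319 to 360.4 CPM with AOA and 246 to 256 CPM with Asp. The adipocyte list, nearly all Fabp4, lay at 145 to 175 CPM in every library, the endothelial list at 2.93 to 6.81 CPM and the epithelial list at 0.654 to 2.52 CPM. The part of these lists in the results below was not tested.

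Promoters of 27 of the 34 genes were in the RefSeq table for GRCm38.p6, which gives 250 bases before to 50 bases after the annotated start. Those of Fads1, Fdft1, Fdps, Scd1, Scd2, Sqle and Stard4 were not. Both strands were searched for TCACNCCAC, the core of the sterol regulatory element, and for CCAAT, the box bound by NF-Y, a factor known to work together with SREBP. CCAAT was present in 14 of 15 sterol genes, 4 of 7 fatty acid genes and 4 of 5 regulators, against 43.8% of the 10027 tested genes with an entry. TCACNCCAC was present in 1 of the 27, Hmgcs1, against 1.38% of tested genes. The windows of 5 genes are shown because they span the responses described below: Hmgcs1, Mvd and Insig1 fell more than 2-fold with AOA, Fasn fell less, and Lss was not called. Capitals mark TCACNCCAC and CCAAT only, ATTGG being CCAAT on the other strand.
Hmgcs1: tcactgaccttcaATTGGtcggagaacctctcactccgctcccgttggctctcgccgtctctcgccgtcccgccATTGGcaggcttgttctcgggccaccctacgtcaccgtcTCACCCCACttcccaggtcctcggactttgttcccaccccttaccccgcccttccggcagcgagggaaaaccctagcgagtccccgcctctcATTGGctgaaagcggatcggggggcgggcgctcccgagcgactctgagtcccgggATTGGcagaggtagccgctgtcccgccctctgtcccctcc
Mvd: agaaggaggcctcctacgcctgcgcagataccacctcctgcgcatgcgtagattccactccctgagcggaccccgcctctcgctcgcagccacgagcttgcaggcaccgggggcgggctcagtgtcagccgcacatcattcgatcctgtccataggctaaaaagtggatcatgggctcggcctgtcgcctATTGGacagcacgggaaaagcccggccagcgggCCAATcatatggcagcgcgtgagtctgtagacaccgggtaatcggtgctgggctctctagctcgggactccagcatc
Insig1: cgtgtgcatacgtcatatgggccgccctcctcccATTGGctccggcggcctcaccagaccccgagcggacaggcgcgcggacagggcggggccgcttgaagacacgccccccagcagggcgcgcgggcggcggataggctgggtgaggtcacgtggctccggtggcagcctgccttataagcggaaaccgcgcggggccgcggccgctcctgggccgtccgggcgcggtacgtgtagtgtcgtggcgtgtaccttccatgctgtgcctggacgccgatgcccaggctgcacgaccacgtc
Fasn: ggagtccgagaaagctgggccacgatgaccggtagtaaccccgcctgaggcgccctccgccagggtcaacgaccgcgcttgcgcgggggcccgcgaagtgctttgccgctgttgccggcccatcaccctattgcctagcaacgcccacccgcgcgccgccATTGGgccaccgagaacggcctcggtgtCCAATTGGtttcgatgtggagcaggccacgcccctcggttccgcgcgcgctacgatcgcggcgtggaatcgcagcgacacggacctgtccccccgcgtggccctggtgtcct
Lss: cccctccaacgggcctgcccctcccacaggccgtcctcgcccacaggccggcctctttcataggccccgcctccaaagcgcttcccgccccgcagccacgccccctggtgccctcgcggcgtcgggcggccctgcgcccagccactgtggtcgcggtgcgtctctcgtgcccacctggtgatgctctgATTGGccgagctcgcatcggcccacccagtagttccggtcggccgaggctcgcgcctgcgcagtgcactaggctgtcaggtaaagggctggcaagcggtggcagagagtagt
The Hmgcs1 window was chr13:119690101-119690400 on the plus strand, and its sterol element TCACCCCAC began at position -137 from the start. The Mvd window was chr8:122443373-122443672 on the minus strand, the Insig1 window chr5:28071162-28071461 on the plus strand, the Fasn window chr11:120824498-120824797 on the minus strand and the Lss window chr10:76531355-76531654 on the plus strand. The Hmgcs1 window held 4 CCAAT boxes, Fasn 3, of which 2 overlap as CCAATTGG, Mvd 2, and Insig1 and Lss 1 each. No sterol element overlapped a CCAAT box. A match describes these letters only and is not a measured binding site.

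Levels can be compared between genes only per length, here as CPM per kilobase of the deposited gene model. In mock, Scd2, a stearoyl-CoA desaturase, stood highest at 215 CPM per kilobase, followed by Fdps, the farnesyl diphosphate synthase, at 185. Cyp51, the lanosterol demethylase, was at 91.3 and Acly, which makes cytosolic acetyl-CoA from citrate, at 88.7. The related desaturase Scd1 was at 69.1, well below Scd2. Srebf1 at 81.1 exceeded Srebf2 at 55.3 CPM per kilobase. Both transcript forms of Srebf1 are counted together. At the low end, Hsd17b7, a ketosterol reductase, was at 9.86, Acss2, which makes acetyl-CoA from acetate, at 9.63, and Tm7sf2, a sterol reductase, at 1.72.

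A few steps were almost silent in this line. Fads2, which begins the synthesis of polyunsaturated fatty acids, held 0 to 12 counts per library, and Stard4, a carrier of sterols between membranes, 0 to 3 counts. A floor of 3 counts covers every Stard4 value. Neither passed the filter, and neither was tested. Fads1, the desaturase that acts later in the same route as Fads2, was present at 64.3 CPM per kilobase in mock.

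**Figure D1:**
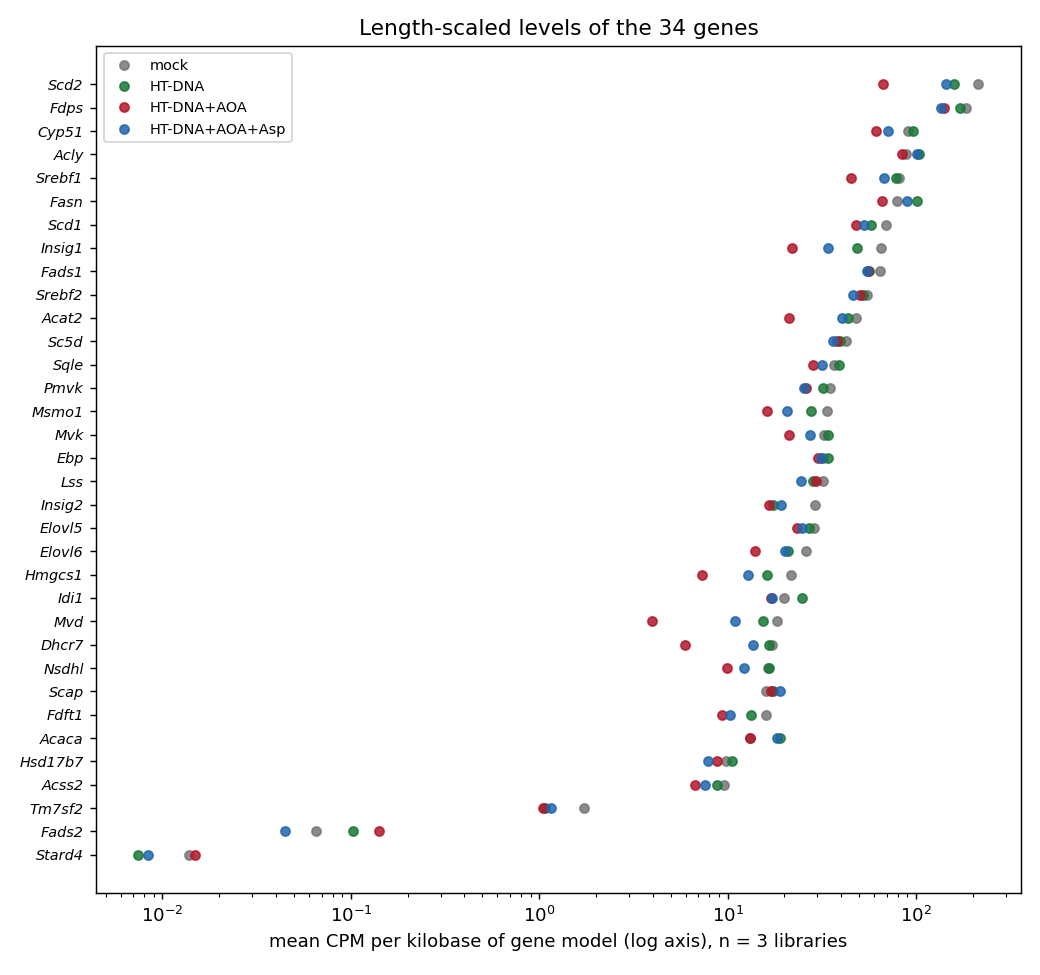
Mean CPM per kilobase of gene model (log axis, n = 3 libraries per group) of the 34 genes, ordered by the mock level, with a point for each group. Scd2 stands highest in mock at 215 CPM per kilobase, and Fads2 and Stard4 lie far to the left of the others.

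HT-DNA was compared with mock to see what transfected DNA did to these genes. The enzymes that lead from citrate to palmitate rose, while desaturases, Insig1, Insig2 and part of the sterol arm fell modestly. Fasn, the fatty acid synthase, rose 1.28-fold and Acaca, the acetyl-CoA carboxylase that commits carbon to fatty acids, 1.45-fold. Of the 32 tested genes 4 were higher and 12 lower, where 21.2% and 19.8% of all tested genes were called higher and lower. No member changed 2-fold in this comparison.

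In mock the 3 libraries had Fasn at 788, 790.4 and 813 CPM, and under HT-DNA at 997, 1017 and 1040.1 CPM. All 3 HT-DNA libraries lay above every mock library (log2 ratio 0.35 with an SE of 0.040, adjusted p 2.93e-07 by edgeR). Acaca went from 119 to 131 CPM in mock to 175 to 193 CPM (log2 ratio 0.54 with an SE of 0.051, adjusted p 2.51e-08 by edgeR). Acly rose less, from 393 ± 10.6 to 459 ± 7.72 CPM (SD, n = 3; log2 ratio 0.23 with an SE of 0.040, adjusted p 1.05e-04 by edgeR). Acss2, the other source of cytosolic acetyl-CoA, was at 20.9, 19.5 and 21.6 CPM in mock and 18.0, 19.5 and 18.9 CPM under HT-DNA, and was not called (edgeR adjusted p 0.144). The other gene that rose was Idi1, the isomerase of the isoprenoid precursors, with 62.9, 60.1 and 58.3 CPM in mock and 73.4, 74.0 and 77.6 CPM under HT-DNA (log2 ratio 0.31 with an SE of 0.052, adjusted p 5.12e-05 by edgeR). It was the only sterol gene called higher.

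The desaturation and elongation genes did not follow Fasn. Scd2 stood at 1179, 1169 and 1167 CPM in mock and at 849.7, 849 and 901 CPM under HT-DNA (log2 ratio -0.44 with an SE of 0.040, adjusted p 1.74e-08 by edgeR). Scd1 stood at 338, 332 and 332 CPM and then at 273, 269.9 and 292 CPM (log2 ratio -0.26 with an SE of 0.043, adjusted p 3.40e-05 by edgeR). Both desaturases were lower in all 3 HT-DNA libraries. Elovl6, which elongates palmitate, and Fads1 also fell, with log2 fold changes of -0.33 and -0.20, while Elovl5, an elongase of polyunsaturated chains, was at -0.09 and was not called.

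Among sterol genes, Hmgcs1, the cytosolic HMG-CoA synthase, was at 77.0, 76.9 and 71.0 CPM in mock and at 51.8, 60.0 and 57.5 CPM under HT-DNA (log2 ratio -0.41 with an SE of 0.055, adjusted p 3.48e-06 by edgeR). Msmo1, a methylsterol oxidase, was at 70.2, 68.6 and 68.0 CPM and then at 57.8, 57.0 and 54.3 CPM (log2 ratio -0.29 with an SE of 0.050, adjusted p 7.90e-05 by edgeR). Neither gene's groups overlapped. Fdft1, the squalene synthase, was at -0.27 and Lss, the lanosterol synthase, at -0.17 log2. Mvd, the mevalonate diphosphate decarboxylase, and Acat2, the cytosolic acetoacetyl-CoA thiolase, were called lower at -0.23 and -0.14, but these calls were not firm. That of Mvd was lost on leaving out any 1 of mock replicates 1 and 3 and HT-DNA replicates 2 and 3 (edgeR adjusted p 0.0516 to 0.117), and that of Acat2 without mock replicate 3 (edgeR adjusted p 0.0720). The other 11 sterol genes were not called. Tm7sf2, at 1.51 to 4.04 CPM in mock and 1.46 to 1.71 CPM under HT-DNA, was among them and became called lower without mock replicate 3 and with no filter beyond 1 count (edgeR adjusted p 0.0105 and 0.0276). Fdps, at a log2 fold change of -0.11 (edgeR adjusted p 0.0679), became called lower without mock replicate 2, with a filter of 1 CPM in 3 libraries and with library size alone as scaling (edgeR adjusted p 0.0310, 0.0336 and 0.00307).

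The largest fall in this comparison was that of Insig2, whose product also retains Scap. It had 35.9, 36.3 and 33.0 CPM in mock and 22.2, 20.9 and 20.1 CPM under HT-DNA (log2 ratio -0.73 with an SE of 0.067, adjusted p 1.74e-08 by edgeR). Insig1 had 174, 177 and 178 CPM and then 126, 136 and 132 CPM (log2 ratio -0.43 with an SE of 0.043, adjusted p 6.46e-08 by edgeR). Srebf1, at 332, 344 and 370.1 CPM in mock and 346, 343 and 324 CPM under HT-DNA, overlapped between the groups. It was not called, and nor were Srebf2 and Scap, at log2 fold changes of -0.04, -0.08 and 0.11 for the 3 genes in that order. With library size alone in place of TMM, 19 members were lower and 4 higher. Srebf1 and Srebf2 were then called lower, at log2 fold changes of -0.11 and -0.14 (edgeR adjusted p 0.0412 and 0.00793). Pmvk, Sc5d, Elovl5 and Acss2 also became called lower. Over all genes that scaling gave 2417 higher and 3740 lower, against 3112 and 2911 with TMM.

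**Figure D2:**
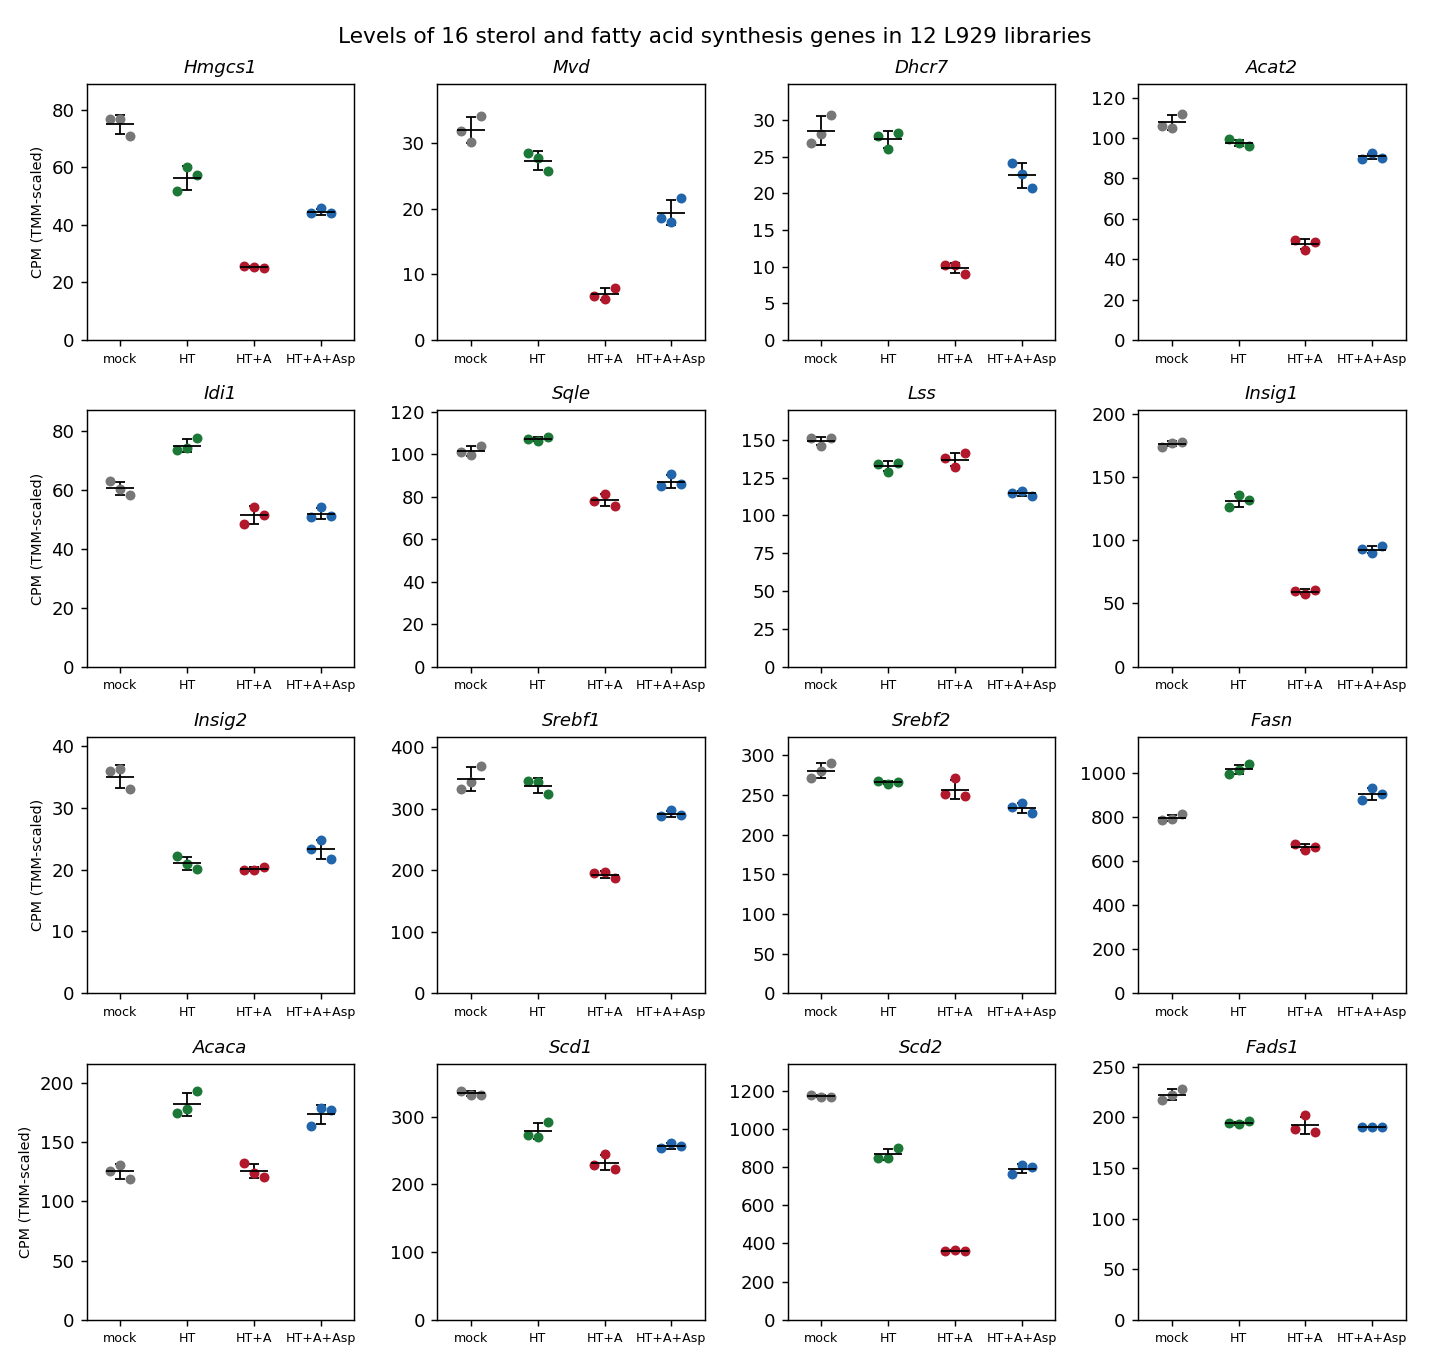
CPM in each library (points) with group mean and SD (n = 3, y axis from 0) for 16 of the genes. HT is HT-DNA and A is AOA. Mvd, Dhcr7, Insig1, Srebf1 and Scd2 drop with AOA and lie higher again with Asp, Idi1 drops and stays at 50.6 to 54.2 CPM with Asp, and Fads1 lies at 186 to 202 CPM in all 9 libraries with HT-DNA.

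HT-DNA+AOA was compared with HT-DNA, both with DNA, to ask what AOA changed. Sterol and fatty acid synthesis genes fell together: 25 of the 32 tested genes were lower and none higher, where 26.5% of all tested genes were called lower and 25.5% higher. In the sterol arm 15 of 18 fell and in the fatty acid arm 8 of 9, and the median log2 fold change was -0.52 and -0.38, against 0.00 over all genes tested. A fall of at least 2-fold was reached by 6 members, Mvd, Dhcr7, Scd2, Hmgcs1, Insig1 and Acat2, where 2.92% of all tested genes were called lower by as much.

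All 7 genes of the mevalonate steps, from acetoacetyl-CoA to farnesyl diphosphate, were lower, with log2 fold changes from -1.98 to -0.29. Mvd stood at 28.5, 27.7 and 25.7 CPM under HT-DNA and at 6.68, 6.19 and 7.99 CPM with AOA, a fall of 3.94-fold (log2 ratio -1.98 with an SE of 0.097, adjusted p 3.33e-13 by edgeR). Hmgcs1 was at 25.9, 25.4 and 25.2 CPM with AOA, 2.21-fold below HT-DNA (log2 ratio -1.15 with an SE of 0.060, adjusted p 1.15e-12 by edgeR). All AOA libraries lay below all HT-DNA libraries for both genes. Acat2, which supplies Hmgcs1 with its substrate, had 99.3, 97.5 and 96.1 CPM under HT-DNA and 49.6, 44.6 and 48.5 CPM with AOA (log2 ratio -1.04 with an SE of 0.049, adjusted p 1.88e-13 by edgeR). Mvk, the mevalonate kinase, went from 57.4, 56.7 and 49.9 CPM to 35.1, 33.5 and 33.0 CPM (log2 ratio -0.69 with an SE of 0.058, adjusted p 1.79e-09 by edgeR). Neighbouring steps moved less. Idi1, at 48.3, 54.2 and 51.6 CPM with AOA, was at -0.54, while Pmvk, the kinase after Mvk, and Fdps were at -0.29 each, with edgeR adjusted p of 1.99e-08, 5.79e-04 and 2.27e-05.

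From squalene onward the response was uneven. Sqle, the squalene epoxidase, had 107, 106 and 108 CPM under HT-DNA and 77.8, 81.4 and 75.7 CPM with AOA (log2 ratio -0.45 with an SE of 0.045, adjusted p 2.30e-08 by edgeR). Lss, which closes the sterol ring next, had 134, 129 and 135 CPM and then 138, 132 and 141 CPM, and was not called (log2 ratio 0.05 with an SE of 0.042, adjusted p 0.375 by edgeR). Its groups overlapped, while those of Sqle did not. Fdft1 fell by 0.50 on the log2 scale. Cyp51 fell from 379, 378 and 377 CPM to 232, 254 and 241 CPM (log2 ratio -0.64 with an SE of 0.043, adjusted p 5.59e-11 by edgeR).

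Later steps ranged widely. Dhcr7, the dehydrocholesterol reductase, had 27.8, 26.1 and 28.2 CPM under HT-DNA and 10.2, 10.2 and 8.98 CPM with AOA, 2.79-fold lower (log2 ratio -1.48 with an SE of 0.083, adjusted p 3.15e-12 by edgeR). Msmo1 was at 34.2, 33.2 and 31.9 CPM with AOA (log2 ratio -0.77 with an SE of 0.053, adjusted p 9.77e-11 by edgeR). Nsdhl, which works with Msmo1 to strip methyl groups, went from 35.7, 37.8 and 35.3 CPM to 22.5, 22.3 and 20.0 CPM (log2 ratio -0.75 with an SE of 0.069, adjusted p 7.88e-09 by edgeR). In each of these 3 genes the groups were apart. Hsd17b7, at -0.26, and Ebp, the sterol isomerase, at -0.18, were called with smaller changes. The call of Hsd17b7 was lost without HT-DNA replicate 3 or HT-DNA+AOA replicate 2 (edgeR adjusted p 0.0701 and 0.0592), and that of Ebp without HT-DNA replicate 1 or 2 or HT-DNA+AOA replicate 2 (edgeR adjusted p 0.0611, 0.0630 and 0.101). Sc5d, a sterol desaturase, at -0.06, and Tm7sf2, at -0.04, were not called.

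In the fatty acid arm Scd2 fell most. It was at 359, 365 and 363 CPM with AOA, 2.39-fold below HT-DNA (log2 ratio -1.26 with an SE of 0.041, adjusted p 8.04e-16 by edgeR). Its close relative Scd1 was at 229, 244 and 223 CPM with AOA, a fall of 1.20-fold (log2 ratio -0.26 with an SE of 0.043, adjusted p 2.63e-05 by edgeR). Reads of these similar genes may be shared between them: their estimated counts were not whole in 12 libraries for Scd1 and 11 for Scd2. Fasn was at 679, 652 and 663 CPM with AOA, below its mock libraries as well as those with HT-DNA (against HT-DNA, log2 ratio -0.62 with an SE of 0.040, adjusted p 3.55e-11 by edgeR). Acaca, at 121 to 132 CPM with AOA, was at -0.53 and Acly, at 361 to 382 CPM, at -0.30. Elovl6 was at -0.58, Elovl5 at -0.22 and Acss2 at -0.38, with 14.4, 14.0 and 14.9 CPM of Acss2 with AOA. Fads1, at -0.02, was the tested gene of this arm that was not called (edgeR adjusted p 0.782).

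The regulators split. Insig1, the SREBP target, was at 59.5, 57.6 and 61.0 CPM with AOA, 2.21-fold below HT-DNA (log2 ratio -1.15 with an SE of 0.045, adjusted p 1.32e-14 by edgeR). Srebf1 was at 195, 197 and 187 CPM, 1.75-fold below (log2 ratio -0.81 with an SE of 0.045, adjusted p 3.55e-12 by edgeR). Both stood apart from every HT-DNA library. Insig2, at 19.9, 19.9 and 20.4 CPM with AOA, overlapped the HT-DNA libraries (log2 ratio -0.07 with an SE of 0.071, adjusted p 0.409 by edgeR). Srebf2, at 268, 264 and 266 CPM under HT-DNA and 251, 271 and 248 CPM with AOA, also overlapped (log2 ratio -0.05 with an SE of 0.043, adjusted p 0.346 by edgeR). Scap was at -0.03. A p over the threshold does not show that these 3 genes kept their level. With library size alone as scaling, Srebf2 was called lower, at -0.11.

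**Figure D3:**
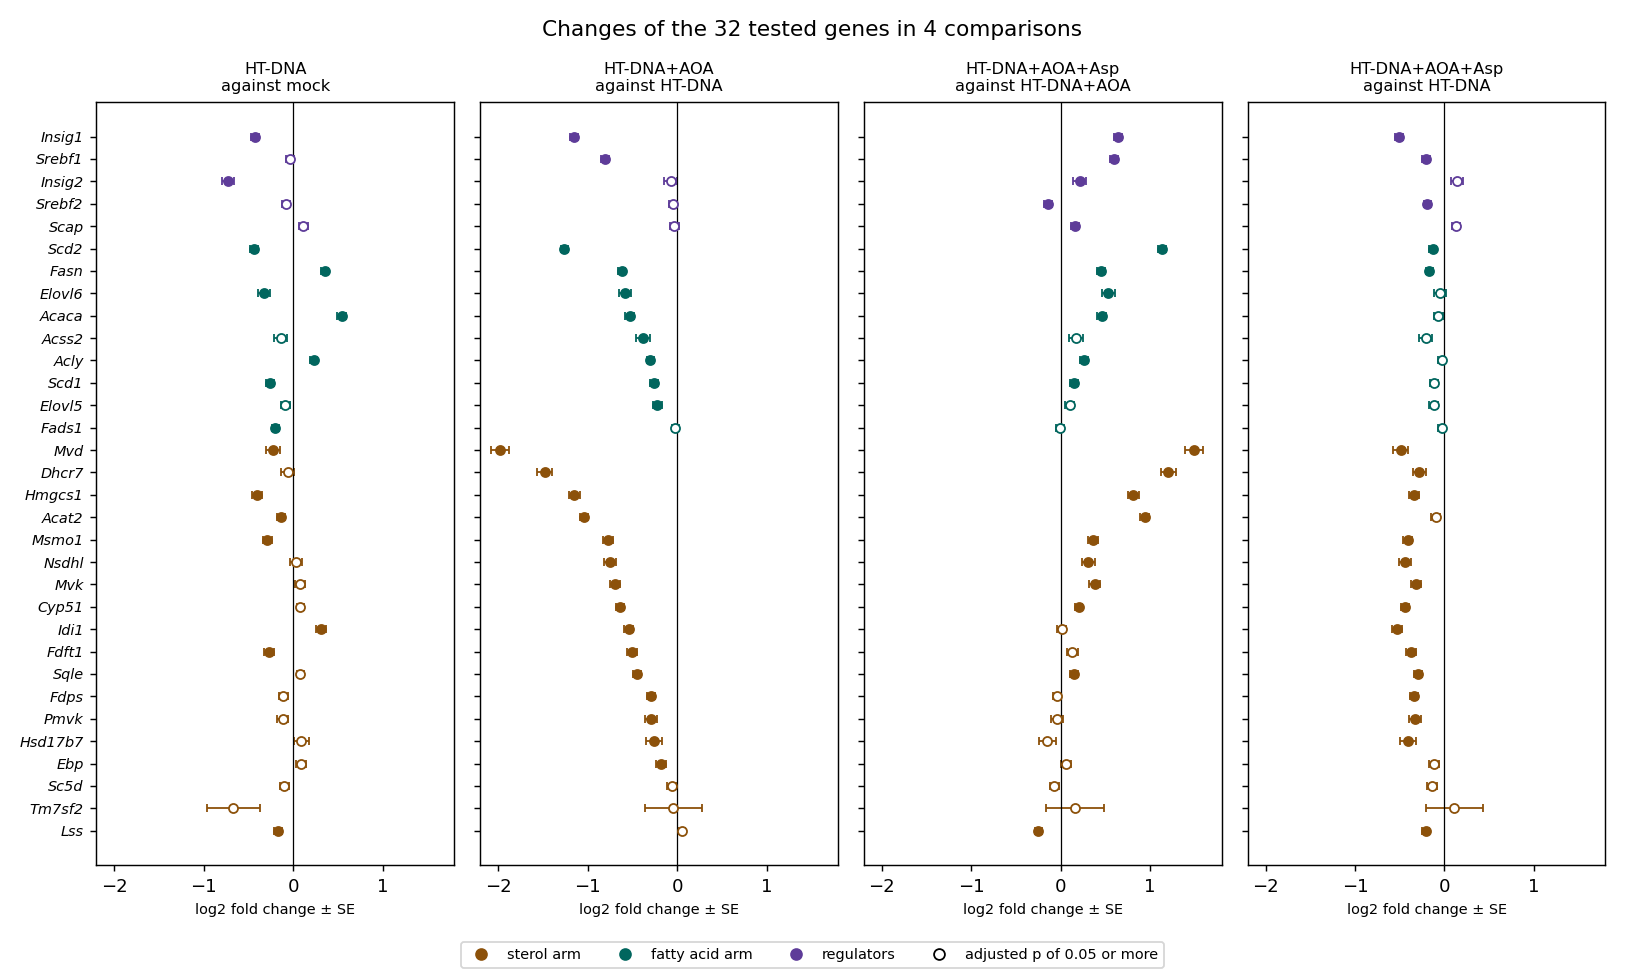
Log2 fold change with its SE for the 32 tested genes in the 4 comparisons, coloured by arm, with open points where the adjusted p was 0.05 or more. With AOA the points reach from -1.98 (Mvd) to 0.05 (Lss). In the right panel the sterol genes lie further below 0 than the fatty acid genes, with medians of -0.33 and -0.12.

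HT-DNA+AOA+Asp was compared with HT-DNA+AOA to ask what adding Asp changed. Many of the genes were higher with Asp, most of all Mvd, Dhcr7 and Scd2, which rose at least 2-fold (3 members, against 3.36% of all tested genes called higher by as much). Of 32 tested genes 19 were higher and 2 lower, where 28.3% of all tested genes were called higher and 26.4% lower. In the sterol arm 9 of 18 genes and in the fatty acid arm 6 of 9 were higher, with median log2 fold changes of 0.15 and 0.26, against 0.00 over all genes tested. This comparison and the preceding one share the HT-DNA+AOA libraries, so their errors are linked and a rise in one is not independent of a fall in the other.

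Mvd was at 18.6, 18.0 and 21.6 CPM with Asp, 2.80-fold above AOA without it (log2 ratio 1.49 with an SE of 0.10, adjusted p 5.75e-11 by edgeR). Dhcr7 was at 24.1, 22.6 and 20.7 CPM, 2.29-fold above (log2 ratio 1.20 with an SE of 0.084, adjusted p 1.20e-10 by edgeR). Acat2 was at 89.8, 92.5 and 90.3 CPM, 1.91-fold above (log2 ratio 0.94 with an SE of 0.049, adjusted p 1.20e-12 by edgeR). Each was higher in all 3 Asp libraries. Hmgcs1, at 44.0, 45.8 and 44.1 CPM, was 1.75-fold above (log2 ratio 0.81 with an SE of 0.062, adjusted p 3.79e-10 by edgeR). Mvk, at 43.5, 44.2 and 44.1 CPM, rose by 0.38 on the log2 scale, Msmo1, at 41.1, 41.3 and 44.8 CPM, by 0.36, and Nsdhl, at 29.2, 25.3 and 25.7 CPM, by 0.31. Cyp51, at 281, 283 and 274 CPM, and Sqle, at 84.8, 90.6 and 85.7 CPM, rose by 0.20 and 0.15.

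Other sterol genes were not called higher with Asp. Idi1 held 50.6, 54.2 and 51.0 CPM, which overlapped its 3 HT-DNA+AOA libraries (log2 ratio 0.01 with an SE of 0.054, adjusted p 0.848 by edgeR). Fdps, Pmvk and Hsd17b7 were at -0.04, -0.04 and -0.15, and Fdft1 at 0.13 (edgeR adjusted p 0.0659). Fdft1 became called higher with library size alone as scaling and without HT-DNA+AOA replicate 3 (edgeR adjusted p 0.00875 and 0.0280). Ebp, Sc5d and Tm7sf2 were at 0.06, -0.07 and 0.16. Lss went the other way and was lower with Asp, at 115, 116 and 113 CPM (log2 ratio -0.25 with an SE of 0.042, adjusted p 2.54e-05 by edgeR). All 3 of these libraries lay below every other library of the series for this gene.

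In the fatty acid arm Scd2 was at 764, 812 and 799 CPM with Asp, 2.18-fold above AOA without it (log2 ratio 1.13 with an SE of 0.041, adjusted p 4.23e-15 by edgeR). Fasn, at 879, 932 and 905 CPM, was 1.36-fold above (log2 ratio 0.45 with an SE of 0.040, adjusted p 4.49e-09 by edgeR). Elovl6, Acaca, Acly and Scd1 rose by 0.53, 0.46, 0.26 and 0.15. Scd1 was at 253, 261 and 256 CPM. Acss2, with 16.7, 14.8 and 17.0 CPM, was at 0.17 and missed the threshold (edgeR adjusted p 0.0755), as did Elovl5 at 0.10 and Fads1 at -0.01. With library size alone as scaling, Acss2 and Elovl5 became called higher (edgeR adjusted p 0.0182 and 0.0115). Acss2 was also called without HT-DNA+AOA+Asp replicate 2 (edgeR adjusted p 0.0304).

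All 5 tested regulators were called. Insig1 rose to 92.7, 89.6 and 95.1 CPM (log2 ratio 0.64 with an SE of 0.046, adjusted p 1.59e-10 by edgeR) and Srebf1 to 289, 298 and 290.1 CPM (log2 ratio 0.60 with an SE of 0.045, adjusted p 3.79e-10 by edgeR). For both genes the groups were apart. Insig2, at 23.4, 24.8 and 21.7 CPM, and Scap, at 79.8 to 80.6 CPM, rose by 0.21 and 0.16. Srebf2 was lower, at 235, 239.5 and 227 CPM (log2 ratio -0.14 with an SE of 0.043, adjusted p 0.0112 by edgeR). That call was lost without HT-DNA+AOA replicate 2 or HT-DNA+AOA+Asp replicate 3 and with library size alone as scaling (edgeR adjusted p 0.0765, 0.0693 and 0.113), which left 1 member lower. The call of Insig2 was lost without HT-DNA+AOA+Asp replicate 2 (edgeR adjusted p 0.0773).

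HT-DNA+AOA+Asp was then set against HT-DNA, to measure how far the genes stood from their HT-DNA level when AOA and Asp were both present. The groups differ in both AOA and Asp, and the part of each could not be measured. The sterol arm was lower than under HT-DNA. The fatty acid arm was closer to its HT-DNA level but still below it, with all 9 tested genes at negative log2 fold changes. In all 19 of 32 members were lower and none higher, where 8.15% of all tested genes were called lower and 10.4% higher. In the sterol arm 14 of 18 were lower with a median of -0.33, in the fatty acid arm 2 of 9 with a median of -0.12, and the median over all genes was 0.00. No member differed 2-fold.

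Idi1 stood furthest below in the sterol arm (log2 ratio -0.53 with an SE of 0.053, adjusted p 1.29e-06 by edgeR). Mvd, at -0.49 (SE 0.085), Cyp51 and Nsdhl, at -0.44 each, and Msmo1 and Hsd17b7, at -0.41 each, came next, with edgeR adjusted p of 4.00e-04, 9.30e-07, 1.34e-04, 2.06e-05 and 0.00289. The order among these genes was not tested. Fdft1, Hmgcs1, Fdps, Pmvk, Mvk and Sqle lay between -0.37 and -0.30. Dhcr7 was at -0.28, a call lost without HT-DNA+AOA+Asp replicate 3 (edgeR adjusted p 0.0867), and Lss at -0.21. Acat2, Ebp, Sc5d and Tm7sf2 were not called.

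Fasn, at -0.17 (SE 0.040, adjusted p 0.00483 by edgeR), and Scd2, at -0.13 (SE 0.040, adjusted p 0.0271 by edgeR), were the fatty acid genes called lower. The call of Scd2 was lost without HT-DNA replicate 3 or HT-DNA+AOA+Asp replicate 1 or 3 (edgeR adjusted p 0.0848, 0.133 and 0.0722), and 1 to 3 genes of the arm were called when libraries were left out in turn. Acly, Fads1, Elovl6 and Acaca lay between -0.07 and -0.03. Scd1, Elovl5 and Acss2 were at -0.12, -0.12 and -0.21. Insig1 was at -0.51 (SE 0.044, adjusted p 2.06e-07 by edgeR), Srebf1 at -0.21 and Srebf2 at -0.19, all called, while Insig2 and Scap, at 0.14 and 0.13, were not.

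Summed over its genes, the sterol arm held 1521 to 1600.2 CPM in mock, 1489.5 to 1518 CPM under HT-DNA, 1055 to 1081 CPM with AOA and 1185 to 1219 CPM with Asp added. The fatty acid arm held 3199.8 to 3231 CPM, 3081 to 3244 CPM, 2049 to 2083 CPM and 2827 to 2975 CPM in the same order. In both arms the AOA libraries were lowest and did not overlap any other group. With Asp the sterol sums lay below every HT-DNA library by more than their own range, and the fatty acid sums lay below the lowest HT-DNA library by less. Sums weight abundant genes, mainly Scd2, Fasn and Acly in one arm and Cyp51 and Fdps in the other. Weighting tested genes equally, the mean log2 level against mock was -0.71 to -0.68 with AOA and -0.40 to -0.38 with Asp in the sterol arm. In the fatty acid arm it was -0.51 to -0.48 and -0.16 to -0.13. The median log2 fold change of the sterol arm minus that of the fatty acid arm was 0.03 for HT-DNA, -0.14 for AOA, -0.11 for Asp added to AOA and -0.22 for HT-DNA+AOA+Asp against HT-DNA. The difference between the arms is a description of genes chosen with results known and has no test.

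**Figure D4:**
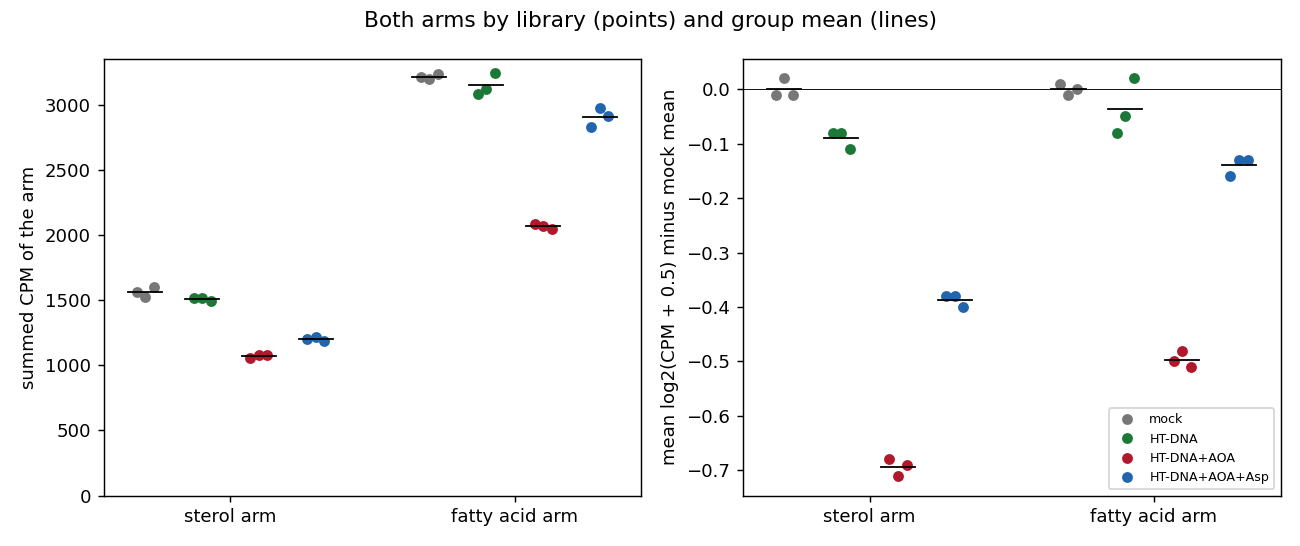
Each arm by library (points) with group means (lines). The left panel gives summed CPM of 18 sterol and 10 fatty acid genes, the right panel the mean log2(CPM + 0.5) of the tested genes minus the mock mean, on an axis that does not start at 0. With Asp the sterol arm lies at -0.40 to -0.38 and the fatty acid arm at -0.16 to -0.13.

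Further genes of these pathways were read from fixed lists. Over all tested genes, the shares called higher and lower were 21.2% and 19.8% with HT-DNA, 25.5% and 26.5% with AOA, 28.3% and 26.4% with Asp, and 10.4% and 8.15% in HT-DNA+AOA+Asp against HT-DNA. The lists are short, many of their counts lie near these shares, and no list was tested against them. Of 12 tested genes of sterol and isoprenoid synthesis beyond the 34, 6 were lower and 2 higher with AOA, and 4 were higher and 4 lower with Asp. With HT-DNA 6 were higher and 3 lower, and in HT-DNA+AOA+Asp against HT-DNA 5 were lower and none higher. Ggps1, which makes geranylgeranyl diphosphate, fell by 0.65 with AOA and rose by 0.85 with Asp on the log2 scale, while Nus1, of the dolichol branch, fell by 0.49 with Asp.

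Of 17 tested genes of fatty acid, acyl-CoA and NADPH supply, 7 were lower and 2 higher with AOA, and 6 were higher and 3 lower with Asp. With HT-DNA 6 were higher and 5 lower, and in HT-DNA+AOA+Asp against HT-DNA 2 were lower and 1 higher. Pgd, an NADPH-forming enzyme of the pentose phosphate pathway, went from 360.2 ± 14.6 to 131 ± 5.85 CPM with AOA (log2 ratio -1.46 with an SE of 0.044, adjusted p 2.71e-16 by edgeR). With Asp it was at 345 ± 2.23 CPM (SD, n = 3). G6pdx, the step before it, fell by 0.72 with AOA. Acacb, the mitochondrial counterpart of Acaca, fell by 1.21 with HT-DNA, whereas Acaca rose, and fell by a further 0.79 with AOA.

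Of 12 tested genes of the machinery that senses sterols and cuts SREBP, 5 were higher and 2 lower with AOA, and 2 were higher and 6 lower with Asp. With HT-DNA 3 were higher and 3 lower, near the shares over all genes. Erlin1, an endoplasmic reticulum protein that restrains SREBP release, rose from 95.2 ± 1.57 to 206 ± 3.58 CPM with AOA (SD, n = 3; log2 ratio 1.12 with an SE of 0.043, adjusted p 7.58e-15 by edgeR) and was at 109 ± 0.780 CPM with Asp. Paqr3, a Golgi protein that binds Scap, rose by 0.80 with AOA. Erlin2, the partner of Erlin1, fell by 0.36. Under HT-DNA, Mbtps1, the protease that makes the initial cut in SREBP, fell by 0.32, and in HT-DNA+AOA+Asp against HT-DNA 1 of the 12 was called, Erlin1 at 0.19.

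In the GENCODE vM21 annotation 12 of the 34 genes share exon bases with another gene, and for 7 of them that gene was also tested. Without a stated strand setting, reads from such neighbours on the opposite strand cannot be told apart. For neighbours on the same strand, as Gm43738 is for Fdps, a strand setting would not separate them. Fdps shares 26.7% of its exon bases with Gm43738, Fdft1 18.3% with Ctsb, and Scap 13.2% with 5830462I19Rik, so their values are uncertain. Hmgcs1 shares 12.1% with Gm48342, which was not tested, and Tm7sf2 12.1% with Vps51, which was. In every one of the 12 libraries the estimated counts of 7 genes were not whole, Acat2, Msmo1 and Cyp51 among them. Those of Hmgcs1 were not whole in 9 of 12. Reads of these genes may also be shared with other genes. Mvd, Dhcr7, Nsdhl, Fasn and Insig1 share no exon bases with another gene.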

How the data were processed

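TRIzol RNA of L929 cells gave 12 libraries, read at Majorbio per the labels' protocols. The authors deposited estimated counts, and 14.4% to 16.6% of the values in a library were not whole. For the aligner, counting program, strand setting and genome build, the sources used here give nothing. The authors' group means equalled the means of the library columns within 3.3e-05 and were not used. Counts were rounded, filtered with filterByExpr (minimum count 10, minimum total 15), scaled by TMM and tested with edgeR 4.0.16 in R 4.3.3, robust quasi-likelihood, with all 12 libraries in a single fit of the 4 groups (8 residual degrees of freedom). P-values were adjusted over 14694 genes by Benjamini-Hochberg, with calls under 0.05. Each SE is the absolute log2 fold change over the square root of F. Replicate pairs differed by more than counting noise (chi-square per degree of freedom 2.15 to 7.96). The fit was tested on simulated counts. DESeq2 1.42.0, other scalings and filters, pairwise fits, a replicate block and leaving out each library were the alternatives.

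The 34 members and all lists were chosen with earlier results of these data known. Single libraries are printed, not always for every group, for 13 members fixed by name, with Stard4 as a range. The same holds for Lss, which no rule selected, and for 6 others by rule. These 6 had the largest changes past the threshold, 5 CPM and no overlap of groups. From each list of other genes, up to 3 per comparison were eligible by the same criteria, and other values of those genes and the members with exon overlap were named after their values were seen. The deposited gene lengths gave CPM per kilobase. Intervals are not given; a floor of 3 counts covers counting error only. Some genes of these lists are not reported here by name.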

Additional observations from a re-analysis of the deposited data

How the results depend on the processing

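Of 2432 values of single members under the alternatives, 2390 kept their side of the threshold, 19 lost a call and 23 gained one. No value called in either of the fits compared changed direction. Among values called in neither, changes of direction were not counted. With library size alone as scaling, members called lower numbered 19 for HT-DNA against mock (12 with TMM) and 1 for HT-DNA+AOA+Asp against HT-DNA+AOA (2 with TMM). With only the 2 groups compared, 1 member, Scap, was called higher in HT-DNA+AOA+Asp against HT-DNA (0 otherwise, at an edgeR adjusted p of 0.0731 in the fit of all groups). With no filter beyond 1 count, the sterol arm minus fatty acid arm median for HT-DNA+AOA+Asp against HT-DNA+AOA was -0.06 (-0.11 otherwise), since Fads2 then entered the arm. Leaving out each library in turn gave 11 to 13 members lower for HT-DNA against mock, 23 to 25 for AOA, 1 to 2 lower and 19 to 20 higher for Asp added to AOA, and 17 to 20 lower for HT-DNA+AOA+Asp against HT-DNA. The arm difference then ranged from 0 to 0.06, -0.18 to -0.10, -0.13 to -0.09 and -0.28 to -0.18 in the same order. Replicate numbers did not pair the libraries: deviations of same-numbered libraries correlated between -0.15 and 0.05 in 18 pairs. The replicate block ended the call of Scd2 in HT-DNA+AOA+Asp against HT-DNA (edgeR adjusted p 0.0523) and changed no other member's call. Depth limits Tm7sf2, Fads2 and Stard4, which held few counts.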
